A study of Mus musculus with 3 samples.

Results

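Cxcl10, Cxcl9 and Cxcr3 encode a pair of interferon-induced chemokines and the receptor they share. These 3 genes, of 17551 in the deposited expression table, were taken by name and followed through the 11 deposited cell clusters and the 4 mouse brains of the pool. CXCL10 and CXCL9 are secreted by myeloid cells, endothelial cells and other cells after exposure to interferons, and they attract CXCR3-bearing cells, chiefly activated T cells and NK cells. Transcription of Cxcl10 responds to type I and type II interferons and to NF-kB, while Cxcl9 responds chiefly to interferon-gamma. In the brain this axis is best known from viral infection, autoimmune inflammation and tumors, where microglia, infiltrating macrophages and astrocytes have been described as sources of CXCL10.

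The study set brains with metastases, seeded about 2 weeks earlier by carotid injection of the mouse mammary carcinoma line E0771, beside naive brains, all from female C57BL/6 mice aged 2 to 3 months. Mononuclear cells, released with papain and concentrated by Percoll centrifugation, were stained with 6 tagged antibodies and with 1 hashtag antibody per brain, and run as a single pool by CITE-seq, which counts surface tags and mRNA in the same droplets. Its title asks about Cxcl10 made by myeloid cells native to the central nervous system. Which hashtag marked which condition is not given in the sources used here, so each brain is called by its hashtag, stands alone, and no condition was tested. The brains with hashtags 1, 2, 3 and 4 gave 844, 410, 1385 and 2029 cells with median depths of 4370.5, 5599.5, 12450 and 12806 unique molecular identifiers (UMIs, each standing for 1 captured mRNA). A level below is the mean over cells of UMIs per 10000 UMIs of the cell, and intervals are exact 95% intervals that cover counting error only. Clusters were made from the RNA of these same cells, so differences between clusters are descriptions without a test.

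The chemokine genes lie beside each other on the minus strand of chromosome 5, Cxcl9 at chr5:92321331-92328079 and Cxcl10 at chr5:92346638-92348889, and Cxcr3 lies at chrX:101731535-101734147 (RefSeq, GRCm38.p6). RefSeq lists the third ligand gene, Cxcl11, on this build as a transcribed pseudogene, and it was not analysed here. The 250 bases before the starts of both ligand genes are shown because the motif content of these stretches differed. Capitals mark the interferon-stimulated response element (GAAA, any 2 bases, GAAA) and the NF-kB motif, searched on both strands.
Cxcl10 (chr5:92348890-92349139, minus strand): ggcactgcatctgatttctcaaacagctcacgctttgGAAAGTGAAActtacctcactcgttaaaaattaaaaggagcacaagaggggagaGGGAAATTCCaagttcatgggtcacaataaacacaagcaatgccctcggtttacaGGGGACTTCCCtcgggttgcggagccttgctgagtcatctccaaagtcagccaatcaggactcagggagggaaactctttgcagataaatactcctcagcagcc
Cxcl9 (chr5:92328080-92328329, minus strand): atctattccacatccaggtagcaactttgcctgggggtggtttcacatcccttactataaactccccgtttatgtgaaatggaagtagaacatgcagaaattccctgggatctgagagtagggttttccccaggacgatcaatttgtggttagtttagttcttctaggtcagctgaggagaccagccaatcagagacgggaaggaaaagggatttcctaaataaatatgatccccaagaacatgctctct
The Cxcl10 stretch held 1 response element, from 213 to 204 bases before the start, and 3 NF-kB matches, of which the pair nearest the start overlap. No match to either motif was in the Cxcl9 stretch or in that of Cxcr3. Among 32851 RefSeq promoters of the same length, 2.98% held the response element and 7.25% the NF-kB motif. A match is a description of letters, and its absence says nothing about binding elsewhere.

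Cluster 3, the CD45-tagged cluster led by Ctss and the complement genes C1qa, C1qb and C1qc of tissue macrophages, held more Cxcl10 RNA than any other cluster. Of 857 Cxcl10 UMIs in 397 of 4668 cells, 378 (44.1%) lay in 124 of the 404 cells of cluster 3. Its level there was 1.25, 0.772, 1.14 and 3.49 per 10000 in the brains with hashtags 1, 2, 3 and 4, from 9, 10, 84 and 275 UMIs. The hashtag 4 brain stood highest, and its summed level of 3.32 per 10000 (2.94 to 3.74) did not overlap that of the hashtag 3 brain, 1.25 (0.995 to 1.54). Cells with a Cxcl10 UMI made up 28.6%, 14.7%, 23.2% and 39.7% of cluster 3 in the same order. Few cells carried much of it, since 61 of the 124 had a single UMI, 28 had 5 or more and the richest cell had 18.

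Choroid plexus-like cells of cluster 1, epithelium that is not a known main source, served as the background. Their share with a Cxcl10 UMI was 3.09%, 3.40%, 4.97% and 4.46%, at deeper medians of 6100, 7265.5, 8795 and 7847.5 UMIs against 3972, 3274, 3734 and 3897 in cluster 3. When each cell was thinned to 2495 UMIs, the share in cluster 3 was 22.3%, 12.2%, 16.4% and 32.1%, against 1.08%, 1.25%, 1.51% and 1.98% in choroid plexus-like cells. Cluster 3 was therefore above this background in all 4 brains. By level it was the highest of the 11 clusters in 3 brains, and by thinned share in 4. The exception was cluster 8 of the hashtag 3 brain, at 1.505 per 10000, where 1 cell held all 28 UMIs.

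Endothelial-like cells of cluster 4, led by Ackr1 and the tight junction gene Cldn5, came next, at 0.245, 0.611, 0.193 and 0.748 per 10000. Their median over brains was 0.428, against 1.20 for cluster 3. This RNA sat in few cells, with 5 of 295 holding 69.6% of the 56 UMIs and 1 cell of the hashtag 4 brain holding 18. The share of endothelial-like cells with a UMI was 8.33%, 7.14%, 6.17% and 6.98%. Cluster 6, the neutrophil-like and granulocyte precursor-like cells, was low, at 0.123, 0, 0.128 and 0.423 per 10000 from 15 UMIs in all. In clusters 5, 9 and 10 there were 10, 18 and 3 UMIs. Over brains, the range of cluster 3 (0.772 to 3.49) lay above that of cluster 4 (0.193 to 0.748). The other 9 clusters followed with medians of 0.143 down to 0.0254, and each overlapped its neighbour in that order.

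**Figure D1:**
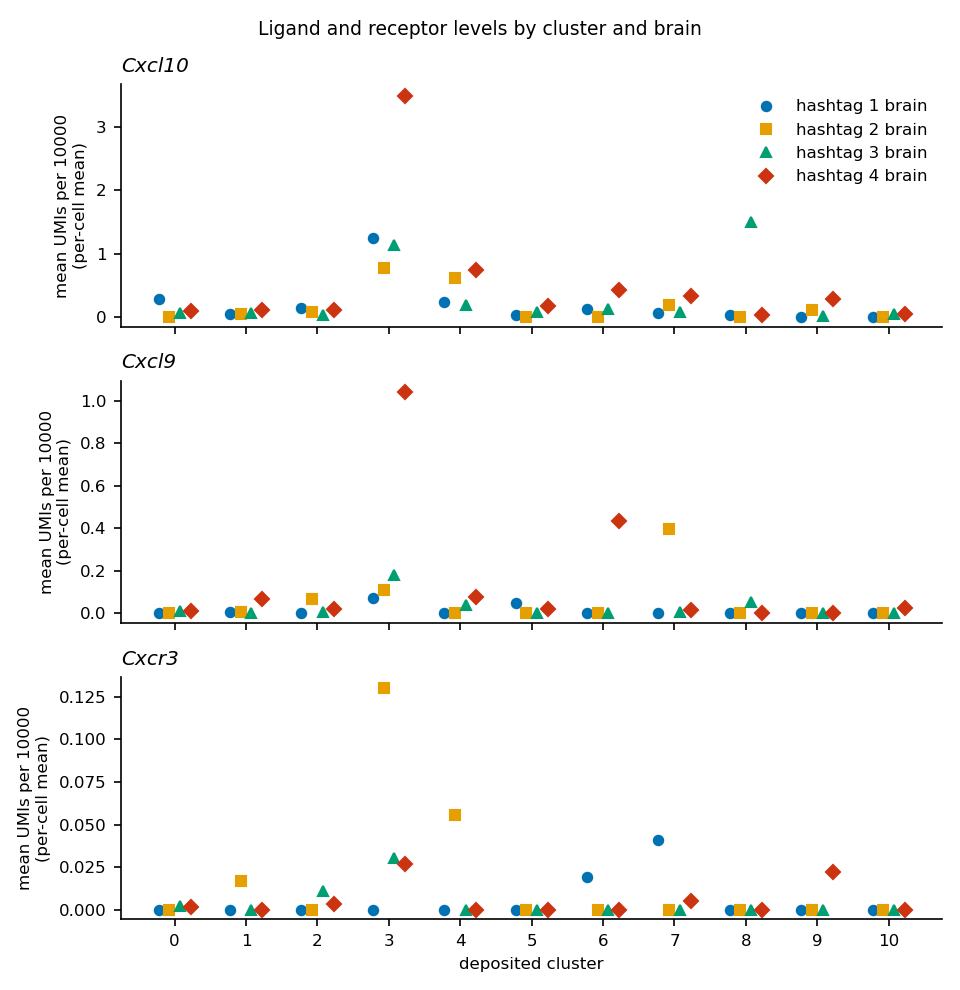
Mean level of Cxcl10, Cxcl9 and Cxcr3 (vertical axes, UMIs per 10000, each with its own scale) in the 11 deposited clusters (horizontal axis), with 1 point per hashtag brain. Cluster 3 of the hashtag 4 brain is the highest point for Cxcl10 (3.49) and Cxcl9 (1.04), and the Cxcl10 point of the hashtag 3 brain in cluster 8 rests on 1 cell.

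Clusters 0, 2 and 7, the cells richest in the homeobox gene Rhox5 (4.68, 4.88 and 4.81 per 10000), which no marker list named, held 123, 105 and 69 Cxcl10 UMIs. Together their level was 0.199, 0.0675, 0.0564 and 0.127 per 10000 in the 4 brains, against 0.0432, 0.05, 0.0608 and 0.112 in choroid plexus-like cells, with the hashtag 1 brain the farthest above. That value rests on few cells, since 1 cell held 6 of the 13 UMIs. With only cells whose own hashtag gave at least 80% of hashtag counts, it was 0.0220, against 0.0463 in choroid plexus-like cells. In the hashtag 4 brain 1 choroid plexus-like cell held 13 of 23 UMIs, and 1 cell of clusters 0, 2 and 7 held 17 of 211. Of the cells with a UMI, 70 of 83, 55 of 63 and 26 of 36 in these clusters had 1. RNA of C1q, the complement component made by macrophages, was also counted in them, at 1.56 to 2.34 per 10000 in the hashtag 4 brain, against 58.6 in cluster 3. At cluster 3's own ratio of Cxcl10 to C1q, their C1q UMIs correspond to 194.9 Cxcl10 UMIs in the hashtag 4 brain, where 211 were counted, and to 42.1 in the hashtag 3 brain, where 71 were counted. The hashtag 1 and 2 brains had 13 and 2 counted, against 3.17 and 1.02 at that ratio. Endothelial-like cells exceeded the ratio in each brain, with 13, 10, 7 and 26 UMIs counted against 0.753, 0.447, 2.81 and 6.91.

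**Figure D2:**
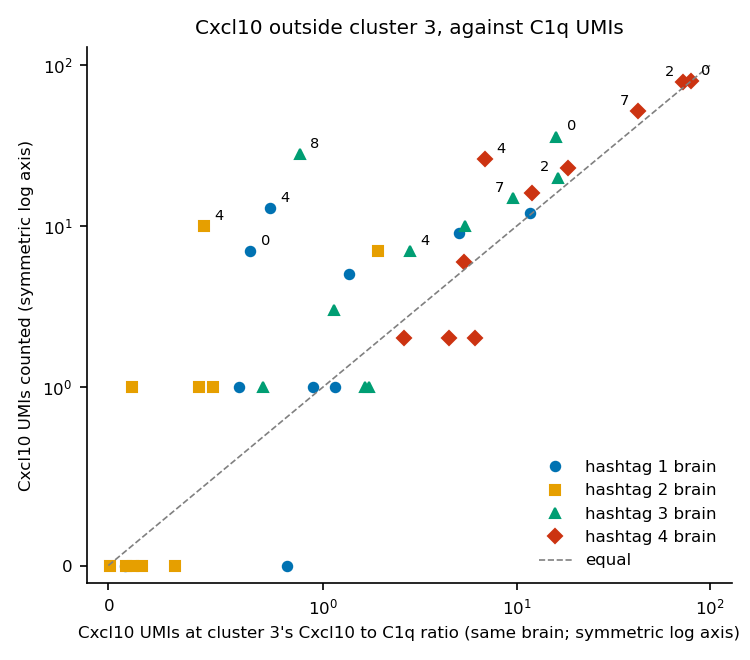
Cxcl10 UMIs counted in each cluster and brain outside cluster 3 (vertical axis) against the number that the C1q UMIs of that cluster would carry at the Cxcl10 to C1q ratio of cluster 3 in the same brain (horizontal axis), both on symmetric log axes, with cluster numbers beside some points. Clusters 0 and 2 of the hashtag 4 brain lie on the line of equality (80 against 79.5 and 79 against 72.8), and cluster 4 lies above it in all 4 brains.

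The 627 immune cells of clusters 3 and 6 were clustered again on 77 marker genes. This panel held none of the 3 genes and no gene of the fixed lists of interferon-induced genes and interferon-gamma GTPases. Cxcl10 was found in several of the resulting classes. Cells of the marrow-derived monocyte or macrophage-like class stood at 5.78 per 10000 in the hashtag 4 brain (21 of 47 cells with a UMI), the highest of its classes, and at 1.44 in the hashtag 3 brain (12 of 45). The leading genes of this class included Ifi204 and Tor3a, which are on the interferon-induced list. Microglia-like cells, led by Tmem119 and P2ry12 but also by the antibody genes Igkc and Jchain, had 0.728, 1.19, 1.10 and 2.90 per 10000 in the brains with hashtags 1 to 4, from 8, 22, 8 and 20 cells. The microglia-like value of the hashtag 4 brain moved with the clustering, to 0.572 at a finer resolution of 1.5. Dendritic cell-like cells of the hashtag 4 brain had 4.004 per 10000 (9 of 16 cells), and those of the hashtag 3 brain 0.0602 (1 of 13). An unnamed class led by Spp1 and Gpnmb had 1.32 (10 of 43) and 0.701 (4 of 29) in the same 2 brains.

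T cell-like cells, the class that would carry the receptor, had Cxcl10 UMIs in 19 of 33 cells of the hashtag 4 brain (3.01 per 10000) and in 5 of 30 of the hashtag 3 brain (0.577). The same cells held C1q RNA at 36.6 and 53.1 per 10000, beside 36.7 and 63.4 in marrow-derived-like cells, so C1q RNA was present in their droplets at a similar level. In the hashtag 4 brain there were 9 Cxcl10 UMIs per 100 C1q UMIs in T cell-like cells, 14.5 in marrow-derived-like, 13.02 in dendritic cell-like, 3.25 in microglia-like and 1.52 in the Spp1-led cells. Neutrophil-like cells held 3.35, 1.75 and 0.181 per 10000 in the brains with hashtags 4, 3 and 1, from 15, 11 and 91 cells. In the hashtag 4 and 3 brains their 17 and 12 UMIs lay in 4 and 2 cells, which held C1q RNA at 55.6 and 49.9 per 10000. Cluster 6 held just 2 and 1 Cxcl10 UMIs in these brains, so most of the 17 and 12 lay in neutrophil-like cells of cluster 3. NK cell-like cells of these brains held 1.90 (hashtag 4) and 0.969 (hashtag 3), from 12 cells each. Of the 6 classes with at least 10 cells in both brains, all 6 were higher in the hashtag 4 brain than in the hashtag 3 brain, and 5 of 6 were at resolution 1.5.

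**Figure D3:**
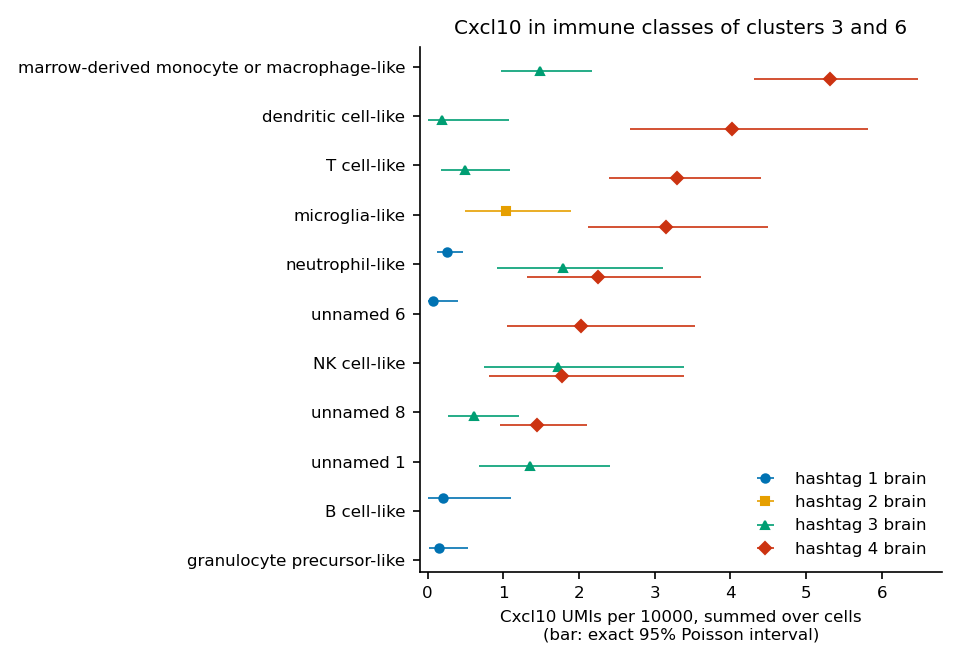
Summed Cxcl10 level (horizontal axis, UMIs per 10000) with its exact 95% Poisson interval for immune classes of clusters 3 and 6 (vertical axis), with 1 point per hashtag brain that has at least 10 cells of the class. The hashtag 4 points of marrow-derived-like (5.31), dendritic cell-like, T cell-like and microglia-like cells lie to the right. In NK cell-like and neutrophil-like cells the intervals of the hashtag 3 and 4 brains overlap, while the hashtag 1 interval of neutrophil-like cells lies below both.

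Cxcl9, the ligand tied most closely to interferon-gamma, had most of its UMIs in cluster 3. It had 160 UMIs in 103 cells, and cluster 3 held 92 of them (57.5%) in 44 cells. Its cluster 3 level was 0.0716, 0.110, 0.179 and 1.04 per 10000 in the brains with hashtags 1 to 4, from 1, 1, 14 and 76 UMIs. The hashtag 4 brain was again the highest, with a summed level of 0.917 (0.723 to 1.15) that did not overlap the 0.208 (0.114 to 0.349) of the hashtag 3 brain. Cells with a Cxcl9 UMI made up 4.76%, 2.94%, 3.23% and 19.1% of cluster 3, or 1.79%, 2.74%, 2.03% and 14.9% after thinning. In the hashtag 4 brain its level was 1.3 per 10000 in marrow-derived-like cells (9 of 47 cells), 1.87 in dendritic cell-like cells (5 of 16) and 1.04 in microglia-like cells (5 of 20). The Spp1-led class was at 0.722 in the hashtag 4 brain, from 4 cells with a UMI, and at 0.715 in the hashtag 3 brain, where 1 of 2 such cells held 9 of the 10 UMIs. With only cells of at least 80% own hashtag counts the class was at 0.59 and 0.11 in these brains, and cluster 3 at 1.17 and 0.0416. Cluster 6 had 2 Cxcl9 UMIs, both in 1 cell, and its range over brains (0 to 0.432) overlapped that of cluster 3.

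Cxcr3, the receptor, was close to the detection limit. It had 26 UMIs in 25 cells, with 7 UMIs in 6 of the 404 cells of cluster 3 and 7 UMIs in 7 of the 778 cells of cluster 2. Its cluster 3 level was 0, 0.130, 0.0306 and 0.0271 per 10000. The 0 of the hashtag 1 brain, from 21 cells, allows a share of cells with a UMI of up to 14.3% (3 counts) and sets no limit on cells that express the gene. Among immune cells with a UMI of a CD3 gene (Cd3d, Cd3e or Cd3g), genes of T cells, 4 of 167 had a Cxcr3 UMI (2.40%, exact interval 0.656 to 6.02%). The T cell-like class had 74 cells, so most of these 167 lay outside it. Immune cells with none had 3 of 460 (0.652%, 0.135 to 1.89%), and cells of other clusters 18 of 4041 (0.445%, 0.264 to 0.703%) at a median depth of 11453 UMIs, against 4134 in the CD3 cells. The intervals of these 3 shares overlap, but the shares are at unlike depths. By summed level, the CD3 cells had 0.0679 per 10000 (0.0220 to 0.158), from 5 UMIs. Cells of other clusters had 0.00377 (0.00223 to 0.00595), which did not overlap it. Immune cells with none lay between, at 0.0155 (0.00320 to 0.0454), and overlapped both. The receptor-bearing cells could not be placed in a class at this depth: the 74 T cell-like cells held 2 UMIs in 1 cell, the 58 microglia-like cells UMIs in 3 cells, and the 28 NK cell-like cells 1. Ifng, the cytokine that induces both ligands, was as sparse, with 18 UMIs in 18 cells.

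Other genes of the axis were fixed as a list of 10, of which 9 were in the table. Ackr1, the decoy receptor of venular endothelium that binds many inflammatory chemokines, was at 4.81, 0.394, 23.7 and 4.24 per 10000 in endothelial-like cells of the 4 brains, and at no more than 0.0995 in cluster 3. Pf4, a platelet and macrophage chemokine reported to bind human CXCR3, was at 3.51, 7.32, 5.58 and 2.90 per 10000 in cluster 3, an order of brains unlike that of Cxcl10. Cxcr4, the receptor of Cxcl12 on T and myeloid cells, was at 0.775, 0.213, 1.05 and 1.08 there. Dpp4, the protease that trims CXCL10, had 37 UMIs in 35 cells, and Ccr3 had 2. Sdc4, a heparan sulfate proteoglycan, was found in 3464 cells with 16900 UMIs, and Sdc1 in 2077 cells.

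Of 27 immune cells with UMIs of both Cxcl9 and Cxcl10, 24 came from the hashtag 4 brain. There, 24 of 79 cells with a Cxcl10 UMI also had a Cxcl9 UMI (30.4%, exact interval 20.5 to 41.8%), against 14 of 132 cells without (10.6%, 5.92 to 17.2%). After thinning to 2495 UMIs these shares were 23.5% and 10.1%, and with only cells whose own hashtag gave at least 80% of hashtag counts they were 31.3% and 12.5%. The hashtag 3 brain had 2 of 37 against 3 of 144, the hashtag 2 brain 0 of 5 against 1 of 38, and the hashtag 1 brain 1 of 15 against 0 of 177, too few to order. In clusters 0, 2 and 7 of the hashtag 4 brain the shares were 5.17% (6 of 116, 1.92 to 10.9%) against 1.93% (22 of 1137, 1.22 to 2.91%). These intervals overlap, and after thinning the shares were 1.55% and 0.381%. Cells of 1 brain are not replicates, so no test was made.

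To see which genes accompany Cxcl10 in immune cells, cells with a Cxcl10 UMI were set against cells without one from the same brain and cluster, as 5 pairs of averaged profiles: cluster 3 of each brain (6, 5, 36 and 77 cells with a UMI, against 15, 29, 119 and 117 without) and cluster 6 of the hashtag 1 brain (9 against 162). Cxcl10 itself was left out, and Cxcl9 and Cxcr3 were seen in too few cells to enter. None of 4143 genes passed a Benjamini-Hochberg adjusted p of 0.05 in limma (0.0%), with 150 at an unadjusted p under 0.05, and DESeq2 on recovered counts also called 0 (0.0%), with 46. On the same recovered counts, edgeR's quasi-likelihood test called 13 (0.314%), with 190 at an unadjusted p under 0.05. Its 7 higher genes (0.169%) were 5 interferon-induced genes, Isg15, Ifit1, Ifit3, Ifi47 and Rsad2, the monocyte chemokine Ccl12 and the globin gene Hba-a2. Its 6 lower genes (0.145%) were the antibody genes Igkc and Ighm, the granule protease Elane, Gpnmb, Fabp5 and Wfdc17. These names were taken after the edgeR result was seen. On simulated counts for these pairs limma recovered 12% of 2-fold and 43% of 4-fold changes and edgeR 35% and 94%. Of the unchanged genes limma called 0 and edgeR 3. That simulation planted 100 changes of each size, gave every gene the same spread and left out differences between pairs.

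Isg15, a ubiquitin-like antiviral protein, was at 5.66, 1.99, 7.69 and 14.8 per 10000 in cluster 3 cells with a Cxcl10 UMI, in the order of hashtags 1 to 4, against 0.757, 1.21, 5.25 and 5.87 in cells without. Cluster 6 went the other way, with 0.612 against 0.733. The log2 difference was 1.01 ± 0.34 (SE, limma, 5 pairs, adjusted p = 0.847), and edgeR gave 0.80 with an adjusted p of 0.0438. Rsad2, the antiviral enzyme viperin, was at 5.03 against 0.896 per 10000 in cluster 3 of the hashtag 4 brain. It was higher in 5 of 5 pairs, with a log2 difference of 1.05 ± 0.40 (limma adjusted p = 0.847). In cells with a Cxcl10 UMI it had just 2 and 1 UMIs in cluster 3 of the hashtag 1 and 2 brains, and 1 in cluster 6. Ccl12, a ligand of the monocyte receptor CCR2, was at 24.9, 9.56, 5.35 and 8.01 per 10000 in cluster 3 cells with a UMI, against 10.5, 10.1, 3.46 and 2.55 in those without. The cluster 3 pairs of Ccl12 thus point the same way except in the hashtag 2 brain.

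The interferon-induced list had 27 of 40 genes tested, of which 0 passed in limma and 5 were higher in edgeR. Their median log2 difference was 0.33, beside -0.14 over all genes tested, with 23 of 27 above 0. In edgeR the medians were 0.52 and -0.07, and 27 of 27 were above 0. With just the 2 pairs that have at least 20 cells in each group, cluster 3 of the hashtag 3 and 4 brains, limma called 26 of 4336 genes (0.6%), 18 of them higher (0.415%) and 8 lower (0.185%), and 7 of the higher ones were on the list: Isg15, Ifit1, Ifit3, Ifi47, Ifi205, Usp18 and Rsad2. That setting has 1 residual degree of freedom, so its calls rest on the spread pooled over genes. Without the hashtag 4 brain edgeR called 1 gene higher. Of other lists, NF-kB genes had 17 tested, class I presentation 16, homeostatic microglia genes 14, interferon signalling 13 and T and NK cell function 8, with 0 called by limma or edgeR in each. MHC class II genes had a median of -0.27 over 6 tested, checkpoint genes -0.12 over 7 and immediate early genes 0.02 (edgeR -0.16) over 19, likewise with 0 called. Of the other axis genes 4 were tested and 0 called by limma or edgeR over the 5 pairs, while in the 2 pairs of at least 20 cells limma called Pf4 lower, with a log2 difference of -1.22 (adjusted p = 2.5e-07). The 3 GTPases of the interferon-gamma list that were tested had a median of 0.51 with 0 called. Other chemokines had 11 tested with Ccl12 called higher by edgeR, and neutrophil granule genes 12 with Elane called lower.

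Markers of other cell types moved with these pairs. Igkc was at 1.99, 1.91, 2.28 and 0.858 per 10000 in cluster 3 cells with a Cxcl10 UMI, against 37.8, 73.6, 9.63 and 1.39 in those without, a log2 difference of -2.72 ± 0.52 (limma adjusted p = 0.847; edgeR -3.18). The summed B cell list, 2 of 9 tested, was lower in 5 of 5 pairs (1.96 to 5.53 against 2.79 to 89.2 per 10000). Markers of marrow-derived cells were higher in 5 of 5 (29.4 to 67.3 against 16.1 to 49.7 per 10000, 11 of 12 tested, 0 called by limma or edgeR over the 5 pairs). In the 2 pairs of at least 20 cells limma called Ly6c2 of this list higher, by 0.70 on the log2 scale (adjusted p = 0.0041). C1q was higher in 3 of 5 (20.9 to 114 against 11.8 to 104 per 10000). The erythroid list was higher in 4 of 5 (2.97 to 32.4 against 2.94 to 23.2 per 10000), with 32.4 against 3.15 in cluster 3 of the hashtag 4 brain and 2.97 against 23.2 in cluster 6. In the 2 pairs of at least 20 cells limma called Hba-a1, Hba-a2 and Hbb-bs higher, by 2.20, 1.88 and 1.37 on the log2 scale (adjusted p = 3.4e-13, 1.9e-07 and 3.2e-07). The part of these markers in the differences was not tested. When the cells without a Cxcl10 UMI were weighted to the immune class mix of the cells with one, limma again called 0 genes. Since the unweighted fit had also called 0, this count cannot show what part the class mix had. Cluster 6 had 1 pair, so the interaction term in limma (0 of 4143 genes called, 100 at an unadjusted p under 0.05) says nothing on whether the difference is alike in clusters 3 and 6.

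**Figure D4:**
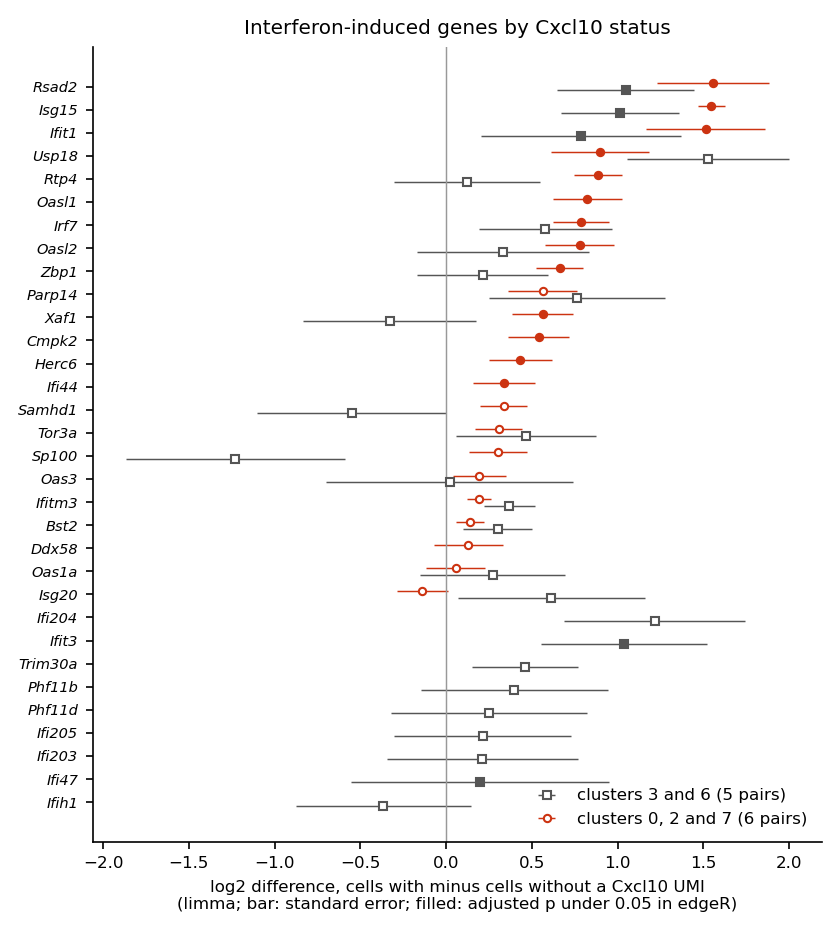
Log2 difference of interferon-induced genes between cells with and without a Cxcl10 UMI (horizontal axis, limma, bars show standard errors) for genes of the fixed list (vertical axis), with squares for clusters 3 and 6 over 5 pairs and circles for clusters 0, 2 and 7 over 6 pairs. Filled symbols passed in edgeR, 5 in clusters 3 and 6 and 13 in clusters 0, 2 and 7, and most symbols lie to the right of 0.

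Clusters 0, 2 and 7 were examined the same way after their Cxcl10 UMIs had been seen, as 6 pairs from the hashtag 3 and 4 brains (10 to 52 cells with a UMI, against 66 to 652 without). Pairs from the same brain are not independent, yet each fit treated them so, and its p-values do not measure replication over 6 animals. Depth was close within pairs, for example a median of 13655 against 13577 UMIs in cluster 0 of the hashtag 3 brain. Of 7905 genes, limma called 12 (0.152%), with 6 higher and 6 lower in cells with a Cxcl10 UMI (0.0759% each). Calls by edgeR numbered 58 (0.734%), 48 higher (0.607%) and 10 lower (0.127%), and DESeq2 called 16 (0.202%), 15 higher (0.19%) and 1 lower (0.0127%). In simulated counts for these pairs limma recovered 79% of 2-fold changes and edgeR 83%, and they called 8 and 7 unchanged genes. That simulation planted 100 changes each of 2-fold and 4-fold, gave every gene the same spread and left out differences between pairs. Its 8 and 7 are therefore no estimate of wrong calls among the 12 and 58.

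Isg15 was at 3.54, 3.46 and 4.16 per 10000 in cells with a Cxcl10 UMI of clusters 0, 2 and 7 in the hashtag 3 brain, against 1.18, 1.06 and 1.75 in cells without. Its values in the hashtag 4 brain were 4.26, 4.24 and 6.26, against 1.27, 1.44 and 1.73. The groups did not overlap, and the log2 difference was 1.55 ± 0.08 (SE, 6 of 6 pairs higher, limma adjusted p = 3.2e-10). Ccl2, the chemokine that draws monocytes through CCR2, was at 3.97, 3.66 and 1.64 per 10000 against 0.624, 0.818 and 1.19 in the hashtag 3 brain, and at 5.10, 4.02 and 4.79 against 1.02, 0.964 and 0.821 in the hashtag 4 brain. Its log2 difference of 1.92 ± 0.17 (limma adjusted p = 1.7e-06) was the largest called increase. Nfkbia, the NF-kB inhibitor that NF-kB itself induces, rose by 1.04 ± 0.08 (limma adjusted p = 3.3e-07) and was higher in 6 of 6 pairs.

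The smaller increases were in Rtp4, an interferon-induced chaperone, with a log2 difference of 0.89 ± 0.14 (limma adjusted p = 0.00485), and in Ly6e, an interferon-responsive surface protein, with 0.35 ± 0.07 (limma adjusted p = 0.0398). Ifi27l2a rose by 0.62 ± 0.11 in limma (adjusted p = 0.0113), in 5 of 6 pairs. Among the alternative settings Rtp4 passed in 6 of 9, Ifi27l2a in 4 of 10 and Ly6e in 3 of 10. Genes that fell were Enpp2 and Ttr of the choroid plexus, by 0.92 and 0.72 on the log2 scale, Fxyd1 by 0.77, the polarity gene Pard3 by 0.75, the globin gene Hba-a1 by 1.06 (5 of 6 pairs) and mt-Nd1 by 0.32. On summed counts edgeR gave -0.27 for Ttr and -0.36 for Enpp2 and did not call Fxyd1 or mt-Nd1. Fxyd1 passed in 4 of 10 alternative settings, Pard3 in 4 of 9, Hba-a1 in 2 of 10 and mt-Nd1 in 0 of 10. The summed choroid plexus list was lower in 6 of 6 pairs (101 to 116 against 141 to 227 per 10000, 9 of 9 tested, 2 called lower by limma), and the erythroid list in 5 of 6 (2.23 to 3.16 against 2.54 to 12.1, 3 of 4 tested, 1 called lower by limma). C1q was higher in 3 of 6 pairs (1.46 to 6.35 against 1.57 to 6.38 per 10000). The microglia list was higher in 5 of 6, the endothelial list in 4 of 6, and the border macrophage and marrow-derived lists in 3 of 6 each. Neither limma nor edgeR called a gene of these 4 lists. The widest gaps were in cluster 7 of the hashtag 4 brain. There the endothelial list was at 11.3 against 3.81 per 10000, border macrophage at 4.32 against 0.763 and marrow-derived at 15.8 against 7.58. The part of these marker lists in the differences was not tested.

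**Figure D5:**
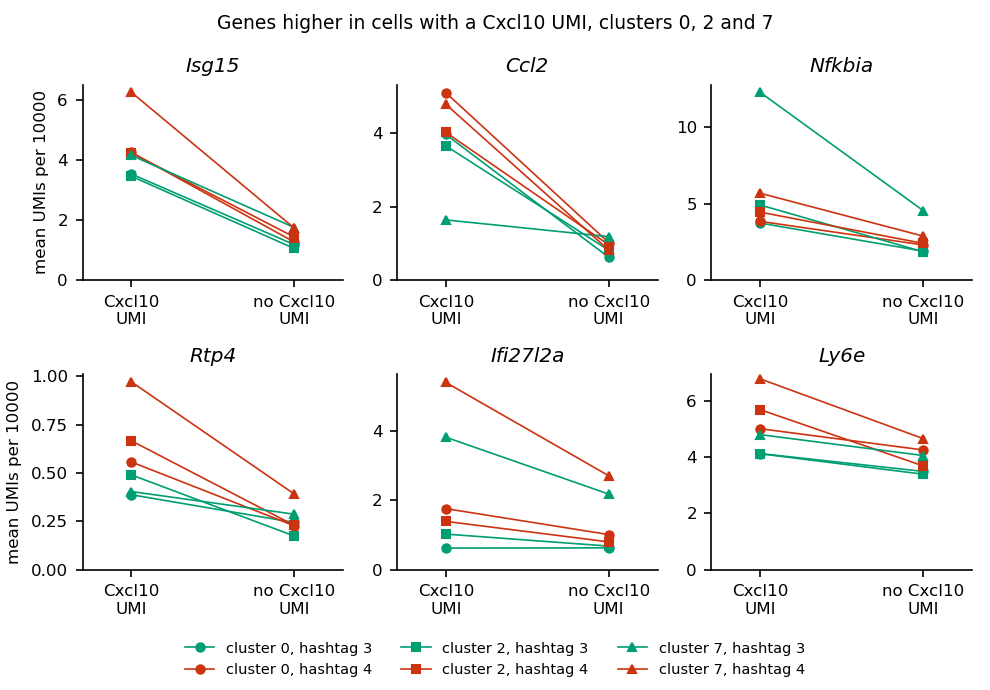
Mean level (vertical axes, UMIs per 10000) of 6 genes in cells with a Cxcl10 UMI (left) and cells without (right) of clusters 0, 2 and 7, each line joining the groups of 1 cluster and 1 hashtag brain. Isg15, Ccl2, Nfkbia, Rtp4 and Ly6e are higher on the left in 6 of 6 pairs and Ifi27l2a in 5 of 6.

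Over the lists in clusters 0, 2 and 7, interferon-induced genes had 23 of 40 tested, with Isg15 and Rtp4 called higher by limma and 13 by edgeR, and a median log2 difference of 0.54 beside -0.03 over all genes. The GTPases induced by interferon-gamma had 4 tested and a median of 0.76, with 0 called by limma, and Gbp2, Gbp7 and Igtp called higher by edgeR. NF-kB genes had 15 tested, with Nfkbia called by limma and 3 by edgeR, and a median of 0.12. Other chemokines had 9 tested, with Ccl2 called by limma, and Ccl2, Ccl5 and Ccl7 by edgeR. Class I presentation had 14 tested, with 0 called by limma and B2m and H2-T23 by edgeR. Of the other axis genes 4 were tested, 0 called by limma, and Sdc1 was called lower by edgeR with a log2 difference of -0.42. Interferon signalling (13 tested, median -0.03), immediate early genes (19, median 0.02), checkpoint genes (5, median 0.17), class II genes (6, median -0.07, edgeR 0.47), homeostatic microglia genes (8, median 0.00) and neutrophil granule genes (8, median -0.08) had 0 called by either tool. Of T and NK cell genes 3 were tested, with 0 called by limma and Ccl5 called higher by edgeR.

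Across 35 profiles of a brain and a cluster with at least 20 cells, and 12669 genes, the genes whose levels ran most like Cxcl10 were Ifi47 and Ifit3, both interferon-induced, with Spearman rho of 0.82 and 0.81, then Slfn2 (0.78), Abi3 (0.77) and Shisa5 (0.77). The closest to Cxcl9 were Dclre1c (0.69), Myd88, the adaptor of Toll-like receptors (0.68), Gsg1 (0.67), Lypla2 (0.65) and Abcg1 (0.64). Those closest to Cxcr3 were Slc36a1 (0.68), Adap1 (0.66), Rad9b (0.66), Zmynd15 (0.65) and I830077J02Rik (0.63), on 26 UMIs. Between the 3 genes rho was 0.47 for Cxcl10 with Cxcl9, 0.36 for Cxcl10 with Cxcr3 and 0.21 for Cxcl9 with Cxcr3. Profiles share brain, library and depth, so these values describe the profiles and carry no p.

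Surface tags gave a further readout of the 5 immune pairs. The CD11b tag, a myeloid integrin, had medians of 2577.5, 5160, 7284.5 and 5426 counts in cluster 3 cells with a Cxcl10 UMI of the brains with hashtags 1 to 4, against 3216, 3757, 5543 and 4603 in cells without. Cluster 6 of the hashtag 1 brain had 4499 against 1420. The mean difference was 1281.6 counts with 4 of 5 pairs higher (exact two-sided sign-flip permutation p = 0.125, adjusted over 6 tags 0.375), where 5 pairs cannot give less than 0.0625. The CD45 tag was 2025.2 counts higher on average, in 4 of 5 pairs (exact permutation p = 0.25). For CD86, CD25, CD3e and CD4 the differences of 47.5, 1.8, 2.8 and 2.1 counts also did not pass. Depth per cell was 567.3 UMIs higher on average in cells with a Cxcl10 UMI, in 4 of 5 pairs (exact permutation p = 0.3125), and its part was not tested.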

How the data were processed

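The authors deposited 1 table of natural log values, ln(1 + UMIs per 10000 UMIs of the cell), for 4668 cells, and a cell table with the total UMI count, hashtag and antibody tag counts, hashtag class and cluster number. The deposited mitochondrial fraction was used as given, and the p-value and q-value that the authors deposited per cell were not used. Cell Ranger 2.1, Seurat 2.3.4 and mm10 appear, with no role stated, in the submitters' processing notes, and CITE-seq-Count in the series' design text. No source used here states the cell filters. The 3 genes, the 13 gene lists and the 19 marker lists were chosen with earlier results of these data known.

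UMI counts were recovered from the deposited values and totals: 99.8% of nonzero values were whole within 0.01, and sums lay within 10 UMIs of the total. No cell was removed, no doublet caller was run, and no barcode occurred more than once. The hashtag of a cell gave at least 80% of its hashtag counts in 47.2%, 37.6%, 69.6% and 79.6% of cells of the 4 brains, and such cells served as an alternative. Depth ranged from 2495 to 43038 UMIs per cell. A CD45 tag count of at least 300 was present in 96.7% of cells of clusters 3 and 6 and in 7.55% of others. Clusters 3 and 6 were clustered again (Scanpy 1.11.5, 15 components, 15 neighbours, Leiden resolution 1), and a class was named from at least 3 markers among its 12 leading genes, a rule set after those genes were seen. Counts of 0 carry the limit that 3 counts allow.

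Cells with and without a Cxcl10 UMI were compared with limma 3.58.1 (intensity trend) on log2(mean per 10000 + 0.1), brain and cluster as a block, in pairs of at least 5 cells a group, over genes present in 10% or more of cells, with Benjamini-Hochberg adjustment at 0.05. The block pairs cells of the same animal. A log2 difference on this scale understates low genes. Printed standard errors are limma's moderated ones. Cells of a pair share a library, so p-values measure the spread between brains and clusters of 1 pool. Pairs from the same brain were treated as independent. edgeR 4.0.16 and DESeq2 1.42.0 on recovered counts, R 4.3.3 and SciPy 1.17.1 served the alternatives and exact tests. The main limma and edgeR fits were also run on simulated data, and DESeq2 and the alternative settings were not. Named were the 10 largest increases and decreases past the threshold with 1 sign in every pair, up to 4 members of each list past the threshold, and the 5 genes with the highest rho per gene. The clusters 0, 2 and 7 comparison, edgeR names, Ifi27l2a and Hba-a1 lie outside this rule. Motifs were searched in RefSeq promoters. Some items are not reported here.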

Additional observations from a re-analysis of the deposited data

How the results depend on the processing

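In immune cells the limma count of 0 stood at 0 with size factors, no filter, a pseudocount of 1, no replicate block, cells of at least 80% own hashtag, cluster 3 alone, class-weighted profiles and Cxcl10 left out of the total, as with DESeq2. It was 13 in edgeR, 18 in thinned cells, 30 with cells of 2 or more Cxcl10 UMIs and 26 with pairs of at least 20 cells, and leaving out 1 brain gave 0 to 1. The thinned, 2-UMI and 20-cell settings have 1 residual degree of freedom. Without the replicate block edgeR called 0, and leaving out 1 brain moved its count between 7 (without hashtag 4) and 20 (without hashtag 1). Cluster 6 alone, with 1 pair, gave no value. In clusters 0, 2 and 7, limma's 12 became 58 in edgeR, 1 with no filter (Isg15), 7 with a pseudocount of 1, 7 with no replicate block and 3 in thinned cells (Isg15, Ccl2 and Nfkbia), where the median of all genes lay at -0.33, and leaving out 1 brain gave 14 to 19. Its edgeR count of 58 was 22 without the replicate block and 25 to 53 without 1 brain. Isg15 passed in 10 of 10 settings, Ccl2 and Nfkbia in 9, Ttr in 8, Enpp2 in 7, Rtp4 in 6 of 9, Fxyd1 and Ifi27l2a in 4, Pard3 in 4 of 9, Ly6e in 3, Hba-a1 in 2 and mt-Nd1 in 0, and mt-Nd1 reversed to 0.0763 in thinned cells. The cause of these changes was not tested. Of the 5 genes most like each gene, 2, 0 and 0 for Cxcl10, Cxcl9 and Cxcr3 were shared when profiles needed at least 50 cells, and leaving out 1 brain shared 0 to 3, 1 to 2 and 0 to 4. The CD4 tag difference ranged from -0.17 to 4.38 counts without 1 brain. Of the levels per cluster and brain, 2 of 35 moved with own-hashtag cells and 0 of 36 with summed UMIs, and of the shares 0 of 35 and, when thinned, 7 of 36.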
